A study of Drosophila melanogaster with 3 samples.

Results

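Synaptic and excitability genes encode the proteins that load, dock and release transmitter vesicles, that make and carry transmitters, and that set the electrical properties of neurons. The 36 genes described here were taken from a list of synaptic vesicle, release, transmitter, adhesion and potassium channel genes. They were chosen by function, with earlier results of these data known, out of 18164 annotated genes. All 36 matched the annotation by symbol. A region was assigned to a gene when its summit lay inside the gene or within 5 kb of it, a span called the window below. The windows of the 36 genes held 29 of the 3319 regions in the list the authors thresholded by irreproducible discovery rate (IDR), and 15 of the 36 genes (41.7%) had at least 1 of them, against 30% of all genes and 31.0% of protein-coding genes. The 36 genes are longer than most, and the shares of protein-coding genes of similar length give 17.1 genes.

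The regions came from ChIP-seq of Hey in whole Drosophila melanogaster embryos of mixed sex, aged 6 to 24 h, from a transgenic line with GFP fused to the C terminus of Hey. All 3 biological replicates belong to a single group, Hey-GFP embryo, so each comparison is between the 36 genes and other genes, between high and low regions, or between replicates. The labels call the assay a transcription factor ChIP and name an antibody against Hey, while a free-text line calls each library an input control. Embryos without the fusion were not analysed here, whole embryos mix all tissues, and binding lists carry no expression values against which the tissue label could be checked.

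Hey is a basic helix-loop-helix repressor of the Hairy-related class that binds E-box and related sites. In the embryonic nervous system it is known as a target of Notch signalling in newborn neurons. Transmitter genes are switched on in subsets of neurons according to their identity, whereas the release machinery and most ion channels are used by neurons of all transmitter types.

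Of the 29 regions, 9 held a CACGTG or CACGCG hexamer within 100 bp of the summit, and the sites are shown here because the strongest region of the cholinergic locus, of Gad1 and of VGlut each carries one. Of all 14 regions at these 3 loci, 5 held a hexamer (35.7%), against 4 of the other 15 (26.7%) and 29.9% of all IDR regions. Each line gives the 24 bases around a site, 5′ to 3′ on the strand that reads the hexamer, with the hexamer in capitals. The reference is the release 6 genome, which shares its coordinates with dm6, and the coordinates that follow are those of the hexamer.
ChAT and VAChT, strongest region, 3R:18721529-18721534, plus strand: aattgccgcCACGTGactccattg
ChAT and VAChT, same region, 3R:18721651-18721656, minus strand: gagtagagcCACGCGcctcaccca
Gad1, strongest region, 3L:4083662-4083667, plus strand: aatctgaggCACGCGtctgccgcc
Gad1, next region, 3L:4081457-4081462, plus strand: aattgcggtCACGTGcgaggactg
Gad1, weaker region, 3L:4082169-4082174, plus strand: gtccagaggCACGCGtcctgcgct
VGlut, stronger region, 2L:2402851-2402856, plus strand: cgttggcagCACGTGtccgggaac
Syt1, only region, 2L:2801376-2801381, plus strand: gcgaggcggCACGCGctcgatccg
eag, stronger region, X:14955687-14955692, plus strand: ggcgccgcgCACGTGtcgacgtcg
futsch, stronger region, X:1423584-1423589, plus strand: ctgcaaccgCACGTGgcaggaaaa
futsch, same region, X:1423489-1423494, plus strand: cacccgaccCACGCGtgcggtgat
futsch, weaker region, X:1405062-1405067, plus strand: ttaacttgcCACGTGtcaaagccg

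The hexamer lay 2 to 92 bp from the summit over 12 sites, with a median of 42.0 bp. The site not printed, on the minus strand at X:1423491-1423496, overlaps the futsch CACGCG listed above. In the VGlut and eag sites the hexamer was bordered by the bases that make GCACGTGT, a form held by 179 of the 569 IDR regions with a CACGTG (31.5%). The form GCACGCGT, at both printed CACGCG sites of Gad1 and at the futsch site not printed, was present in 61 of the 499 IDR regions with a CACGCG (12.2%). A match of letters is a description of the window and does not show that the protein sits there.

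The cholinergic locus and Gad1 held the most IDR regions. ChAT (choline acetyltransferase, FBgn0000303, 3R:18705501-18732344) and VAChT (the vesicular acetylcholine transporter, FBgn0270928, nested in ChAT from the same start site) shared 7 IDR regions. Gad1, which makes GABA (FBgn0004516, 3L:4074077-4088744, minus strand), had 5, and the vesicular glutamate transporter gene VGlut (FBgn0031424, 2L:2400295-2410662) had 2, as did Csp, cpx, futsch and eag. These 3 loci together had 14 of the 29 regions (48.3%), and the other 32 genes had 15. The division was drawn after the values were seen, so it is a description without a test.

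The strongest region of all 36 genes lay in an intron of ChAT, at 3R:18721378-18721781. The authors' caller gave it a signal value of 575, which ranks regions within a list and has no stated unit. It held rank 143 of 3319 in the IDR list and ranks 440, 127 and 65 in replicates 1, 2 and 3. It holds the CACGTG and the CACGCG shown above, lies 16087 bp from the shared start of ChAT and VAChT, and is 1002 bp from the nearest annotated transcription start site (TSS), that of CG34283.

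A second interval in the same intron, 3R:18719702-18720459, had 2 summits, with signal values of 410 and 146. The higher summit ranked 1047, 201 and 273 in replicates 1, 2 and 3 and lay 345 bp from the TSS of lncRNA:CR46265, inside that non-coding gene. The other 4 regions of the locus lay between 2060 and 5958 bp downstream of the common start, in the intron before the VAChT coding sequence. Their signal values were 194, 156, 147 and 123, and none held either hexamer. The highest of these 4 ranked 2116 in replicate 1 and 911 in replicate 3, with no summit within 100 bp in replicate 2. Each of the lower 5 summits was among the 3319 highest regions of 1 or 2 replicates but not of all 3.

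At Gad1 the 4 strongest regions were all intronic and all supported by 3 replicates, where support means a summit within 100 bp among the 3319 highest regions of a replicate. The region at 3L:4083409-4084010 had a signal value of 498 and ranked 670, 161 and 116 in replicates 1, 2 and 3. The region at 3L:4081254-4081643 had a signal value of 412 and ranked 373, 335 and 398. Replicate 1 placed the first of them lowest and ranked the second about as the others did. The next intronic region, at 3L:4076938-4077301, had a signal value of 358, ranks of 1024, 362 and 278, and neither hexamer. It lay 8720 bp from the nearest Gad1 TSS and 3169 bp from the TSS of Faa. The intronic region after it, at 3L:4081837-4082316, had a signal value of 302. The fifth region, of signal 119, lay 3487 bp beyond the end of Gad1 inside wit, a BMP receptor gene, and had support from replicate 1 alone.

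VGlut had 1 strong intronic region, at 2L:2402529-2402988, with a signal value of 384 and ranks of 751, 268 and 476 in replicates 1, 2 and 3. It lay 2052 bp downstream of the nearest VGlut TSS and carried the CACGTG shown above. A weaker region of signal 172 lay 3213 bp upstream of the gene and ranked 8189, 1649 and 770. It was outside the highest regions of replicate 1.

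**Figure D1:**
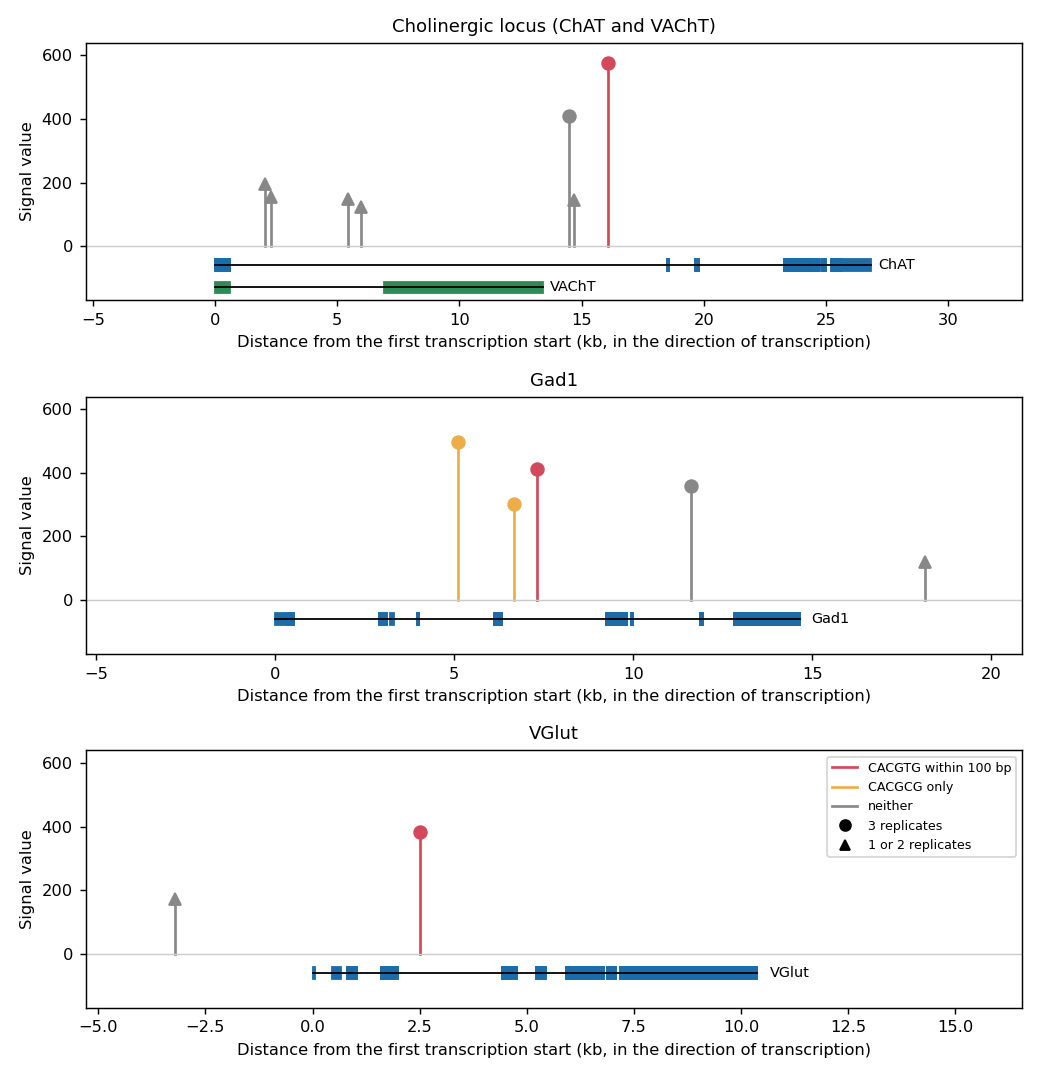
IDR regions at the cholinergic locus, Gad1 and VGlut by distance from the first transcription start in kb (x axis) and the authors' signal value (y axis), with exons drawn as boxes under each map. Stems are coloured by the hexamer within 100 bp of the summit, and circles mark regions supported by 3 replicates; the strongest summits (575, 498 and 384) lie within introns and carry a hexamer.

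The other transmitter genes differed from these. The tyrosine hydroxylase gene ple, needed for dopamine, had 1 region of signal 176 at 3L:6709094-6709278, with ranks of 3293, 1533 and 2309 in replicates 1, 2 and 3. It lay 4163 bp beyond the 3′ end of ple and 1608 bp from the TSS of CG8519. The transporter genes VGAT (GABA), Vmat (monoamines), DAT (dopamine) and SerT (serotonin) had no IDR region. Vmat had a summit 16 bp from its TSS at rank 3578 of the pooled list, just below the IDR threshold, and this summit ranked 16443, 2222 and 2979 in replicates 1, 2 and 3. VGAT, the transporter of the same neurons that use Gad1, had no region of any rank in the pooled list.

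Of the 13 vesicle and release genes, 5 had an IDR region, against 5.93 from the shares of protein-coding genes of the same length class, and they had 7 regions in all, against 12.4 from the class means. Only Csp, a chaperone of vesicle proteins, and cpx, which clamps the release machinery, had regions inside the gene. Regions of Syt1, the calcium sensor of release, Syx1A, a SNARE of the plasma membrane, and Rim, an active-zone scaffold, lay upstream.

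The Syt1 region at 2L:2801102-2801470 was the only one of this group with a hexamer. Its signal value was 307, its summit lay 1396 bp upstream of Syt1, and it ranked 2104, 721 and 755 in replicates 1, 2 and 3. Replicate 1 also had a summit 135 bp from it, within the same interval, at rank 570. The Syx1A region, at 3R:24109048-24109358 with a signal value of 393, had ranks of 275 and 224 in replicates 2 and 3 and no summit within 100 bp in replicate 1. Replicate 1 instead had a summit 116 bp away at rank 1746. The region lay 3397 bp upstream of Syx1A and 176 bp from the TSS of CG18428. The Rim region, at 3R:17919130-17919340 with a signal value of 281, ranked 2221, 322 and 1594 and lay 2670 bp upstream of Rim but 584 bp from the TSS of cpo, an RNA-binding protein gene. For these 2 genes the nearest TSS was thus a neighbour's.

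In cpx, regions of signal 160 and 142 lay 228 bp and 1997 bp from a cpx TSS, with the stronger summit in a 5′ UTR and the weaker in an intron. The stronger ranked 2811 and 1153 in replicates 1 and 3 with no summit within 100 bp in replicate 2, which had one 123 bp away at rank 1443. The weaker ranked 3152, 3005 and 2061. In Csp, regions of signal 126 and 116 lay 155 bp and 1210 bp from the nearest Csp TSS, and the weaker was 1154 bp from the TSS of sisRNA:3. The Csp summit in the 5′ UTR ranked 2031, 21298 and 5648 in replicates 1, 2 and 3, and the intronic one 3198, 4425 and 24101, so both were high in replicate 1 only. The SNARE genes nSyb and Snap25, the Munc18 relative Rop, the priming factor gene unc-13, the synapsin gene Syn, the vesicle GTPase gene Rab3 and the synaptotagmin genes Syt4 and Syt7 had no IDR region.

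Of the 4 active-zone and cytoskeleton genes, 2 had an IDR region, against 2.25 from the shares of their length classes. futsch, the MAP1B relative of the presynaptic microtubules, had an intronic region of signal 159 at X:1423467-1423666, 9783 bp from the nearest futsch TSS, ranked 3087, 1492 and 2852 in replicates 1, 2 and 3. Its other region, of signal 153, lay 4009 bp upstream and ranked 2522 in replicate 1 and 3644 in replicate 2, with no summit within 100 bp in replicate 3. Replicate 3 had a summit 133 bp from it at rank 1142. Both regions held a CACGTG, 2 and 4 bp from the summit. brp, the active-zone scaffold Bruchpilot, had 1 region of signal 141 beyond its 3′ end, inside CG1888, ranked 2279, 5569 and 4388 in replicates 1, 2 and 3. The calcium channel gene cac and the amyloid precursor relative Appl had none.

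Among the 7 potassium channel genes, 2 had an IDR region, against 3.55 from the shares of their length classes. eag, a voltage-gated channel gene, had a summit 207 bp downstream of its TSS, in an intron at X:14955627-14955748. It had a signal value of 203 and ranked 6229, 1061 and 1199 in replicates 1, 2 and 3. The other eag region, of signal 141, lay 4572 bp upstream and 156 bp from the TSS of pdgy, with ranks of 10971, 2446 and 1485, so replicate 1 gave both eag regions low standing. sei, an ERG-type channel gene, was counted through a region of signal 189 that lay 4726 bp beyond its 3′ end and 37 bp from the TSS of eEF5, a translation factor gene, and ranked 2127, 1267 and 2563. The Shaker-type channel genes Sh, Shab, Shal and Shaw and the calcium-activated channel gene slo had no IDR region, although Sh spans 139 kb.

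The adhesion genes gave 1 region. Nrx-1 (neurexin, presynaptic) had a summit in its 5′ UTR, at 3R:22469235-22469360, 145 bp from the TSS, with a signal value of 241 and ranks of 709, 1125 and 2723 in replicates 1, 2 and 3. Its partners Nlg1 and Nlg2 (neuroligins, mostly postsynaptic) had none.

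**Figure D2:**
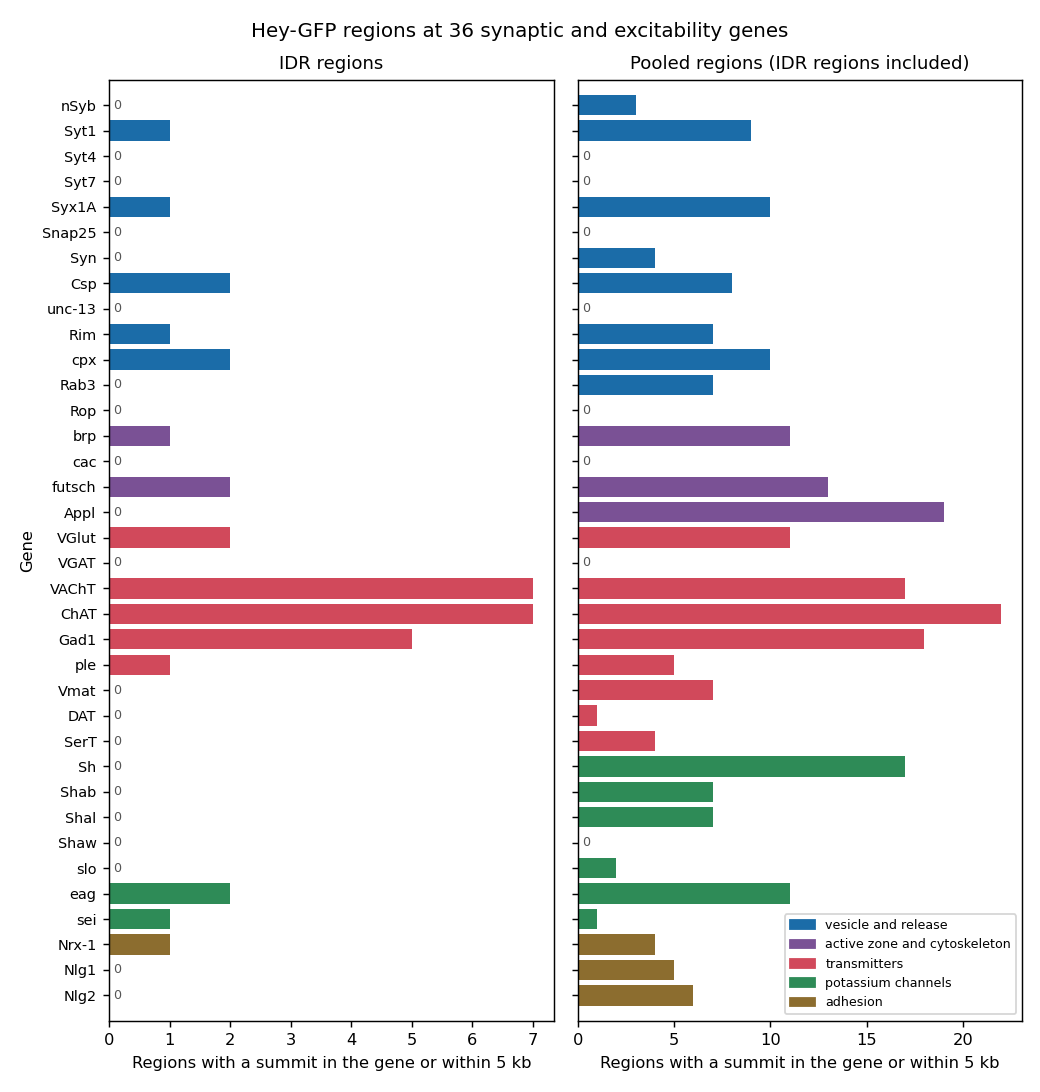
Number of IDR regions (left) and of pooled regions (right) with a summit in each of the 36 genes or within 5 kb, with genes grouped and coloured by role. In IDR regions, ChAT and VAChT (7 each, the same regions) and Gad1 (5) stand above the other genes, which have 0 to 2; in pooled regions, Appl (19) lies between ChAT (22) and Gad1 (18).

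The number of genes hit was then set against the whole annotation. Of the 36 genes, 15 (41.7%) had an IDR region in the window, against 30% of all 18164 genes and 31.0% of the 13945 protein-coding genes. The 36 genes are long, with a median of 22.8 kb against 2.17 kb for protein-coding genes, and longer genes have longer windows. The share of protein-coding genes with an IDR region was 26.2% under 5 kb, 41.1% from 5 to 20 kb, 55.4% from 20 to 50 kb and 58.6% at 50 kb and over. Applied to the lengths of the 36 genes, these shares give 17.1 genes, close to the observed 15. The order of the pair depended on the setting: in 6 of 8 alternatives the observed number was the higher, as with 21 against 20.4 for a 10 kb flank and 11 against 8.93 for regions supported by all 3 replicates.

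Among the 36 genes the share did not climb with length class. Of the members, 1 of 4 under 5 kb, 7 of 13 from 5 to 20 kb, 6 of 14 from 20 to 50 kb and 1 of 5 at 50 kb and over had an IDR region. The longest genes without one were Snap25 (225 kb), Sh (139 kb), Shab (64.6 kb) and cac (53.8 kb). Over the 36 genes the number of IDR regions had a Spearman's rho of -0.100 with gene length, against 0.218 over the 13945 protein-coding genes. With pooled regions the coefficient was positive in both, at 0.218 over the 36 genes and 0.335 over protein-coding genes. Genes share windows and regions, so these coefficients are descriptions.

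Summed over genes, the 36 windows had 36 regions (ChAT and VAChT counting theirs in common), and the mean numbers per length class give 37.0. ChAT, VAChT, Gad1 and VGlut accounted for 21 of them, with 7, 7, 5 and 2. The other 32 genes had 15, against 33.6 from the class means, and 11 of them had any IDR region, against 15.3 from the class shares. Setting aside the genes with the highest counts after seeing them favours such a shortfall, so nothing is drawn from it. In the class of 5 to 20 kb, 5 of 2471 genes (0.202%) had as many regions as VAChT or more and 29 (1.17%) as many as Gad1. In the class of 20 to 50 kb, 17 of 706 (2.41%) had as many as ChAT. The counts of ChAT and VAChT rested on the replicates used: with support required from both remaining replicates, each had 5 regions without replicate 1, 3 without replicate 2 and 2 without replicate 3, while Gad1 had 4 in each case. VAChT had 4 in its gene body. VGlut, with 2, was matched by 460 genes of its class (18.6%).

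**Figure D3:**
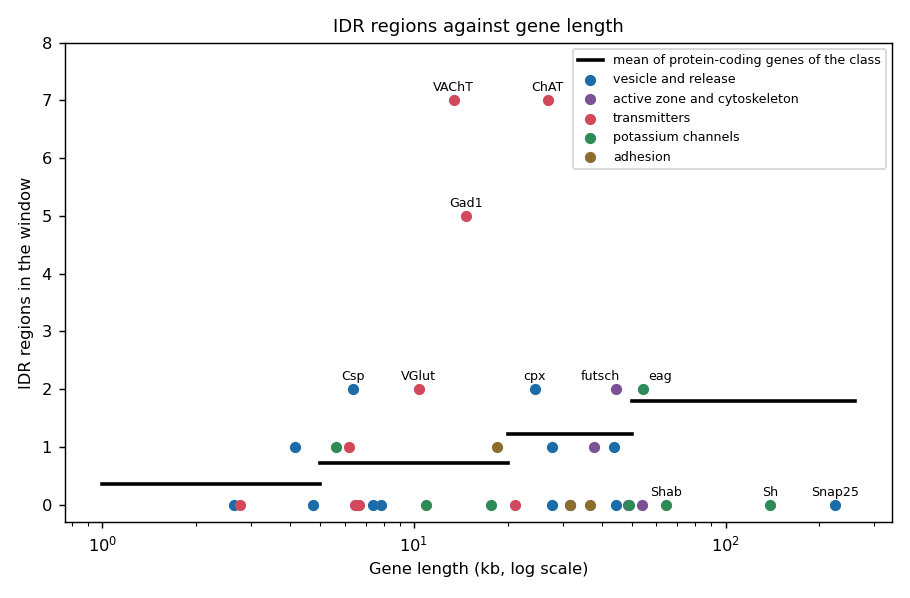
IDR regions in the window of each of the 36 genes (points, coloured by role) against gene length in kb on a log axis, with the mean number for protein-coding genes of the same length class as black lines. VAChT, ChAT and Gad1 lie far above the class means of 0.723 and 1.22, while cac, Shab, Sh and Snap25 lie at 0 in the class with a mean of 1.80.

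By role, the 9 transmitter genes had 5 hit, against 3.84 from the class shares, and 22 regions summed over genes (15 distinct), against 7.15 from the class means. The 3 adhesion genes had 1 hit, against 1.52. Of the 22 regions of the transmitter group, 19 were at ChAT, VAChT and Gad1.

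Other genes of the pathway were scored in the same way. Of 56 further synaptic and excitability genes (other channels, transmitter receptors, endocytic and release factors, amine enzymes), 15 had an IDR region, against 24.4 from the class shares. The strongest were at the glutamate receptor gene Nmdar1 (2 regions, signal 1108, rank 23), the channel subunit gene Hk (2, signal 331) and the channel gene KCNQ (4, signal 299). Of 39 axon guidance and neural adhesion genes, 20 had one, against 20 from the class shares, led by the netrin receptor gene fra (5 regions, signal 336), Sema2b (4, signal 295) and Cont (2, signal 293). Per 100 kb of merged window, the 36 genes had 1.91 IDR regions, the 56 further genes 1.22, the 39 guidance genes 2.15 and protein-coding genes as a whole 2.71. These densities do not allow for gene length. Summed over genes, the 36 genes had 36 regions against 37.0 from the class means. The further genes had 24 against 53.0, and the guidance genes 50 against 48.4.

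The position of the summits was mostly intronic or outside the gene. Of the 29 summits, 16 (55.2%, 95% Wilson interval 37.5 to 71.6) lay in an intron of a member, 3 in a 5′ UTR (10.3%), 10 in the 5 kb flanks (34.5%) and none in coding exons or 3′ UTRs. Introns made up 58.8% of the window bases, 5′ UTRs 2.55%, flanks 23.1%, coding exons 8.12% and 3′ UTRs 7.40%. A TSS of any gene lay within 500 bp of 8 summits (27.6%, 14.7 to 45.7), against 1233 of all 3319 IDR summits (37.1%, 35.5 to 38.8). The intervals overlap, and they cover counting error over regions only.

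Of those 8 promoter summits, 4 were at a member's own TSS (Csp, cpx, eag and Nrx-1) and 4 at another gene's. For 12 of the 29 regions the nearest TSS belonged to a gene outside the list. The 17 others were nearest to the TSS of 9 members, with the start shared by ChAT and VAChT counted for ChAT alone. In the cholinergic, Gad1 and VGlut windows 1 of 14 summits was within 500 bp of a TSS and the median distance to one was 2243 bp, against 7 of 15 and 584 bp at the other members.

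The interval for the share of regions with a hexamer included the share in the whole IDR list. CACGTG was within 100 bp of 6 of the 29 summits (20.7%, 95% Wilson interval 9.85 to 38.4) and of 17.1% of all IDR summits (15.9 to 18.5). CACGCG was at 5 (17.2%, 7.60 to 34.5), against 15.0% of all IDR summits (13.9 to 16.3). Either was at 9 (31.0%, 17.3 to 49.2), against 29.9% of all IDR summits (28.4 to 31.5). Without replicate 3, among regions supported by replicates 1 and 2, it was at 7 of 14 (50%, 26.8 to 73.2), against 32.9% of all such regions (30.6 to 35.3). The gap was smaller without replicate 1 (38.1% against 35.0%) and without replicate 2 (43.8% against 35.4%). Windows of the same length centred 500 bp to either side of the 29 summits held either hexamer in 6 of 58 (10.3%, 4.83 to 20.8), against 6.93% for all IDR regions. Both strands were searched, and CACGTG is its own reverse complement. Of the 9 summits with a hexamer, 8 were more than 500 bp from any TSS.

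Below the IDR threshold the windows held 200 further pooled regions. Among them, 24 had either hexamer near the summit (12.0%, 95% Wilson interval 8.20 to 17.2), against 12.6% of all 26681 pooled regions below the threshold. A TSS lay within 500 bp of 56 (28.0%, 22.2 to 34.6), against 20.2% (19.7 to 20.6).

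Counting pooled regions of any rank, 28 of the 36 genes had at least 1, against 72.9% of protein-coding genes and 31.4 genes from the class shares. The 8 genes with none were Syt4, Syt7, Snap25, unc-13, Rop, cac, VGAT and Shaw. Syt7 had no region in any replicate list either, and Snap25 and unc-13 had 2 each in replicate 2 and none in replicates 1 and 3. Syt7 and unc-13 lie on chromosome 4, which had 48 of the 30000 pooled regions and 7 of the IDR regions. Appl, by contrast, had 19 pooled regions and Sh 17 without an IDR region, with best pooled ranks of 6650 and 7445.

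Several genes without an IDR region had a pooled region not far below the threshold. The share of all genes with their best region there was not computed. The best pooled rank was 3492 at Rab3, 3578 at Vmat, 3782 at Shal, 3913 at Syn, 4145 at Nlg1, 4174 at Shab and 4330 at nSyb, where the IDR list ends at 3319. The Nlg1 summit, in an intron, had a CACGTG and the others had neither hexamer. Further down the pooled list, the best ranks were 5602 at Nlg2, 7056 at SerT, 18762 at slo and 22998 at DAT. Rab3 had a region among the 3319 highest of every replicate, but at different places, an intronic summit at rank 2430 in replicate 1 and an upstream one at ranks 2799 and 3307 in replicates 2 and 3. sei had a summit upstream of the gene at rank 446 in replicate 1 and 2061 in replicate 2 that had no counterpart in replicate 3 or in the pooled list.

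Replicates were compared over the same windows. Among the 3319 highest regions, 30 of replicate 1, 29 of replicate 2 and 31 of replicate 3 fell in the 36 windows, and among the 3319 lowest 35, 33 and 24 did. The means were 30 ± 1.00 for the highest and 30.7 ± 5.86 for the lowest (SD, n = 3 each), a difference of -0.667 that was smaller than the spread (two-sided exact permutation test on unpaired values, p = 1.00, with 0.1 the smallest p possible). Within replicates 1, 2 and 3 the differences were -5, -4 and 7 (exact permutation test paired by replicate, p = 1.00, with 0.25 the smallest possible). The highest regions hit 16, 15 and 17 of the 36 genes in replicates 1, 2 and 3, against 34.5%, 29.2% and 31.3% of protein-coding genes, and the lowest regions hit 21, 15 and 14, against 30.1%, 25.7% and 30.4%. Those shares take genes of all lengths, whereas the 36 genes have longer windows than most. Shares by length class were not computed for these regions, so the counts cannot be compared with genes of similar length. Single genes differed in which regions they held. Gad1 had 7, 5 and 4 of the highest and 1, 4 and 0 of the lowest regions in replicates 1, 2 and 3, and Sh had none of the highest and 5, 4 and 0 of the lowest.

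Support by replicates was as follows. Of the 29 IDR regions, 14 (48.3%, 95% Wilson interval 31.4 to 65.6) were supported by all 3 replicates, 9 by 2, 6 by 1 and none by 0, against 36.5% by all 3 (34.9 to 38.1) and 2.44% by 0 over all IDR regions. Replicate 1 supported 21 of the 29, replicate 2 21 and replicate 3 24.

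Replicate 1 gave the lowest of the 3 ranks at 19 of the 29 regions (65.5%, 47.3 to 80.1), against 42.6% of all IDR regions (40.9 to 44.3). These ranks are of summits within 100 bp, so summits of replicate 1 just beyond that, as at Syt1 and Syx1A, did not count. At the cholinergic, Gad1 and VGlut regions replicate 1 ranked lowest at 11 of 14 (52.4 to 92.4), with median ranks of 1558, 1078 and 623 in replicates 1, 2 and 3. At the other 15 regions it ranked lowest at 8 (53.3%, 30.1 to 75.2), with medians of 2811, 1533 and 2309. The 2 intervals overlap. Replicates 1, 2 and 3 supported 9, 11 and 13 of the 14 regions and 12, 10 and 11 of the other 15. The part of library quality in this was not tested, and the lists hold no read depth.

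**Figure D4:**
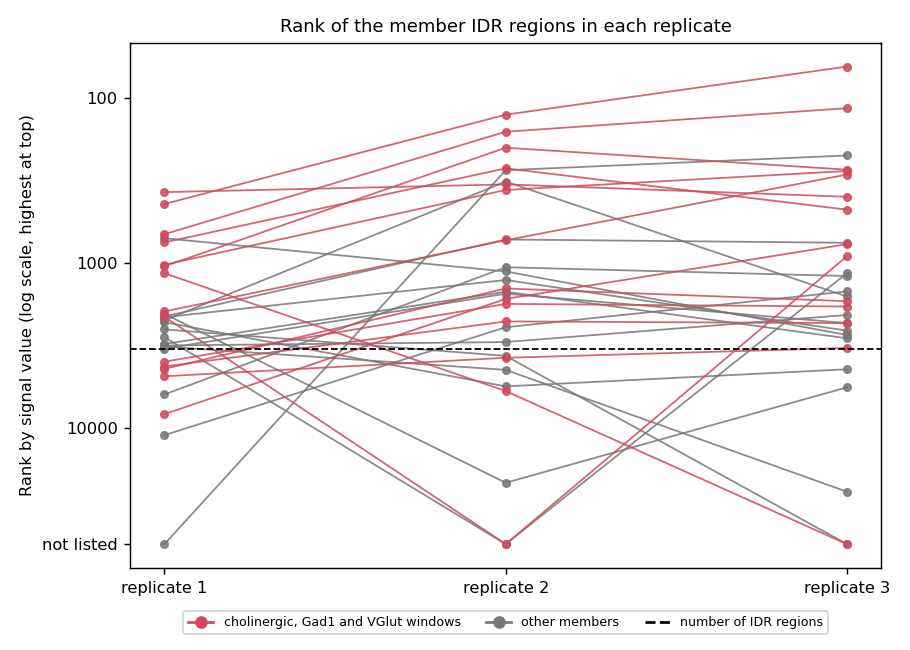
Rank of each of the 29 regions in replicates 1, 2 and 3 on a log axis with the highest rank at the top, joined by a line per region and set to the bottom where a replicate lists no summit within 100 bp. Red lines are the 14 regions of the cholinergic, Gad1 and VGlut windows, grey lines the other 15, and the dashed line is rank 3319. Above it in replicates 1, 2 and 3 lie 9, 11 and 13 of the 14 red regions and 12, 10 and 11 of the 15 grey ones.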

How the data were processed

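ChIP-seq regions were read from 5 deposited narrowPeak lists. The deposited file listings give a control alignment behind every list, 1 replicate alignment behind each replicate list and all 3 behind the pooled list; the IDR list derives from these 4, on dm6. Aligner, caller, IDR threshold and read depth were not given in the sources used. The authors' signal value has no stated scale and served to rank regions inside a list. The deposited −log10 q-value was read but not used. The IDR list equals the 3319 pooled regions of highest signal, out of 30000 per list.

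Genes came from Ensembl release 115 (BDGP6.54, dm6 coordinates), transposable elements left out, on 6 arms. Trh was matched as Trhn. Coordinates are 1-based. Windows, sites and ranks were computed with Python 3.11.15, pandas 2.3.3 and SciPy 1.17.1. Tested on simulated data, all 18164 window counts equalled those of bedtools 2.31.1, and 300 of 300 planted sites were found. Labels number the biological replicates, each counted once. The named genes were all 36 members, with full values for those with an IDR region, and up to 3 genes of highest signal from each other list. Members and lists were chosen with earlier results of these data known. Alternatives varied the flank, region set, promoter, site and support distances and replicates.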

Additional observations from a re-analysis of the deposited data

How the results depend on the processing

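The count of 15 genes stayed within 1.5 times under 8 of 11 alternatives, and was 9 with gene bodies only, 9 with a 1 kb flank and 9 when a region counted for the nearest TSS's gene alone. In the last of these, the start shared by ChAT and VAChT was counted for ChAT alone. Adding VAChT would bring that count within 1.5 times. Observed and length-class numbers were 9 and 11.1 for gene bodies and 9 and 13.3 for the 1 kb flank. The observed number was the higher in the 6 other alternatives: 21 and 20.4 with a 10 kb flank, 11 and 10.8 in the upper 50% by signal, 11 and 8.93 with support of all 3 replicates, and 13 and 11.7, 11 and 10.4, and 11 and 10.9 without replicates 1, 2 and 3. The 29 regions became 19 with gene bodies, 19 with a 1 kb flank, 51 with a 10 kb flank, 15 in the upper 50% by signal, 14 with support of all 3 replicates, 17 by nearest TSS and 17 without the cholinergic locus and Gad1, an alternative chosen after seeing the data. Requiring support of both remaining replicates gave 14 to 21 regions (21 without replicate 1, 16 without replicate 2, 14 without replicate 3) and 11 to 13 genes, fewer by construction.

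The share with a hexamer was 50% among regions supported by all 3 replicates, against 36.3% of all such IDR regions, and 38.1% to 50% with a replicate left out, against 32.9% to 35.4%. The share supported by all replicates was 80.0% in the upper 50% by signal, 27.6% by reciprocal overlap of 50% and 48.3% to 72.4% with a replicate left out. It has no value among regions already chosen for that support. With a replicate left out it cannot fall below 48.3%, since only the remaining replicates had to support a region. Of all 3319 IDR regions, 1832, 1486 and 1535 had such support without replicates 1, 2 and 3. For the upper 50% by signal and reciprocal overlap, the share of all IDR regions was not computed. The promoter share stayed within its interval under every alternative run. The difference between the highest and lowest regions changed sign with a 10 kb flank (9, exact permutation p = 0.1), with the numbers of highest and lowest regions cut by 50% (1.00, exact p = 0.700) and with a replicate left out (-4.50 to 1.5, 1.5 without replicate 1 and 1.00 without replicate 2). No setting passed the threshold, which 3 replicates cannot reach. The causes were not tested. With the replicate as a block, pairing highest and lowest regions within each replicate, the difference was -0.667 with an exact permutation p of 1.00, an alternative chosen after seeing the data. Intervals cover counting error only, and read depth is unknown.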
